A study of Mus musculus with 20 samples.

Results

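The liver transcriptome of mice that received Aroclor 1260 and PCB 126 together was compared with that of vehicle-treated mice on the same high-fat diet (HFD). The comparison used 10 of the 20 RNA-seq libraries of the study, 5 labelled HFD + Aroclor + PCB 126 and 5 labelled HFD control, chosen by the exposure that their labels and the columns of the deposited count table name. Of the 21780 genes in that table, 15522 were tested, those whose counts summed to 10 or more in the 20 libraries. All mice were male C57Bl/6J, were 8 weeks old when the diet began and ate a diet with 42% of its energy from fat for 12 weeks. After 2 weeks, at 10 weeks of age, each mouse had a single oral gavage. HFD control mice received the corn oil vehicle, and the combined exposure group received Aroclor 1260, a commercial mixture of polychlorinated biphenyls (PCBs), at 20 mg/kg together with the single congener PCB 126 at 20 µg/kg. The HFD + Aroclor and HFD + PCB 126 groups, 5 libraries each, had the same diet with 1 of these 2 agents, and they are used below only to place the combined exposure. Each group held 10 mice, of which 5 livers were sequenced, and each library is 1 mouse. The methods give 10 weeks between gavage and collection, whereas the labels give 12 weeks of treatment. All groups had the high-fat diet, so the values describe PCBs on top of that diet.

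Dioxin-like PCBs such as PCB 126 bind the aryl hydrocarbon receptor (AhR), a transcription factor that pairs with ARNT and switches on drug-metabolizing genes of the Cyp1 family. The non-dioxin-like congeners that make up most of Aroclor 1260 act largely through the constitutive androstane receptor (CAR, encoded by Nr1i3) and the pregnane X receptor (PXR, encoded by Nr1i2), whose usual targets in mouse liver are Cyp2b and Cyp3a genes. The liver also runs a circadian clock, makes most plasma apolipoproteins, and depends on chaperones, proteasomes and mitochondria to sustain its synthesis of proteins.

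Expression is given as CPM, the reads of a gene scaled to a library of fixed size after normalization by the trimmed mean of M values. The log2FC is the log2 of the combined exposure level over the HFD control level, so that 1 means a doubling. Genes were tested with the quasi-likelihood test of edgeR, and p-values were adjusted over all 15522 genes by the method of Benjamini and Hochberg. A gene is said to have risen or fallen only where the adjusted p was under 0.05. Because the libraries differed in how their counts changed with the GC content of a gene's transcripts, each comparison was fitted both as deposited ("without correction") and after the trend over GC content had been removed from each library ("with correction"). The 2 results are given side by side.

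The libraries held liver RNA. Between 21836506 and 36854887 reads were counted per HFD control library and between 23471120 and 29366462 per combined exposure library. The summed level of 10 hepatocyte markers was 108525 to 115214 CPM in HFD control and 99859 to 131167 CPM in the combined exposure, a sum made up mostly of Alb and Cyp2e1. Of the 10 markers none rose, 4 fell without correction and 1, Ttr, fell in both fits, with a median log2FC of -0.40 without and -0.28 with correction. The median of the 10 in each mouse, on the log2 scale relative to the mean of the control mice, was -0.145 to 0.150 in HFD control and -0.740 to -0.145 in the combined exposure. The marker sums of Kupffer, sinusoidal endothelial, cholangiocyte, lymphocyte and erythroid genes overlapped between the groups. The 16 stellate cell and fibrosis markers summed to 220 to 402 CPM in control mice and 398 to 453 CPM in exposed mice (exact permutation p = 0.0159, adjusted p = 0.0794 over 15 library measures), and their part in the other results was not tested. Of the 16, Dcn, Lrat, Lum and Reln rose and Des fell without correction, and none passed edgeR's test with it, 4 having an unadjusted p under 0.05. Fewer cells of a type and less RNA per cell cannot be told apart in bulk tissue. Skeletal muscle, fat and pancreas markers summed to 75.8 CPM in HFD control replicate 4, which stood apart, to 16.1 to 25.6 CPM in the other control mice and to 10.96 to 18.2 CPM in the exposed mice (log2 difference -0.97, exact permutation p = 0.0159, adjusted p = 0.0794). Among them Acta1 passed in both fits and Ckm, Myh4 and Cela1 only without correction. Acta1 was at 12.1 CPM and Myh4 at 17.8 CPM in HFD control replicate 4, and both were at 0 in every exposed mouse and under 0.1 CPM in the other control mice. The libraries also differed in how their counts followed GC content. The GC slope of a library, the change in a gene's log2 level per 10 percentage points of GC content relative to the mean of the 20 libraries, was 0.264 ± 0.188 (SD, n = 5) in HFD control, with a range of 0.00607 to 0.504. It was -0.393 ± 0.212 (SD, n = 5) in the combined exposure, with a range of -0.676 to -0.130, and the groups did not overlap (exact permutation p = 0.00794, the smallest that 5 mice against 5 can give). The labels number the libraries through the groups in turn, so that the order of the libraries and the exposure cannot be told apart. The cause of the trend over GC content was not tested.

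The number of genes called depended on this correction. Without it, 5089 genes (32.8% of those tested) differed between the combined exposure and HFD control, 2454 higher (15.8%) and 2635 lower (17%). With correction 1410 genes (9.08%) differed, 579 higher (3.73%) and 831 lower (5.35%). In both fits and in the same direction, 890 genes differed (5.73%), 359 higher (2.31%) and 531 lower (3.42%). These 890 genes are the ones that the text calls changed in both fits. A further 4175 genes passed only without correction, 496 passed only with it, and 24 passed both with opposite signs. The number with correction rested on combined exposure replicates 4 and 5, the libraries with the lowest GC slopes, since it was 719 without replicate 4 and 576 without replicate 5. When the fit held the library GC slope as a covariate in place of the correction, 518 genes passed (32 higher and 486 lower), and among the genes named by the rule Slc46a3 and Ppp1r1b did.

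The genes called without correction were sorted by base composition. When the tested genes were divided into 10 equal groups by GC content, the median log2FC without correction went from 0.55 in the lowest group, where 821 genes rose and 2 fell, to -0.71 in the highest group, where 4 rose and 779 fell. With correction the medians of the 10 groups were between -0.04 and -0.0079, which the correction itself brings about. Gene length moved with the groups as well. After the GC correction the median log2FC was -0.11 in the shortest quintile of genes and 0.048 in the longest, so another fit removed the trend over length together with that over GC content. In this fit 594 genes were higher (3.83%) and 878 lower (5.66%). Lists of short genes are given with their values from this fit as well.

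**Figure D1:**
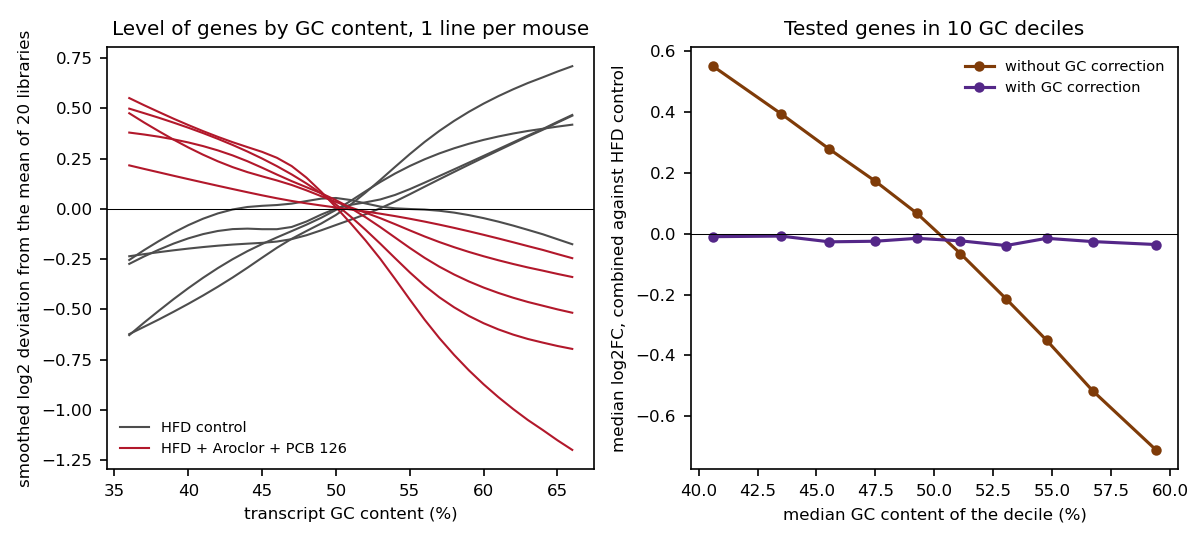
The left panel plots the smoothed log2 deviation of each library from the mean of the 20 libraries (y axis) against transcript GC content in percent (x axis), with 1 line per mouse in grey for HFD control and red for the combined exposure. The right panel plots the median log2FC of the tested genes in 10 groups of GC content, which falls from 0.55 to -0.71 without correction (brown) and stays between -0.04 and -0.0079 with correction (purple).

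Across 33 gene lists, the AhR targets had the highest median log2FC after correction. The list of heat shock, immediate early and metallothionein genes had the lowest. Lists are described by the number of members that passed and by their median, beside the median of all tested genes, which was -0.00096 without and -0.022 with correction. The shares of all tested genes to set beside these numbers were 15.8% higher and 17% lower without correction. With correction they were 3.73% higher and 5.35% lower. The lists were not tested as sets. Members other than those named by the rule in the methods were picked as examples after their values had been seen. Some genes named in the lists below have annotated spans that overlap another gene, so that their reads may not be fully separated. They include Manf, Tap1, Tap2, B2m, Oat, Hnrnph3, Irf9, Apoc4, Per3, Dbp, Junb, Hspa1a, Stat5a, Serpinc1, Bud23, Trmt1, Ndufa2, Psmc3, Psmd9, Ugdh and Selenop.

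**Figure D2:**
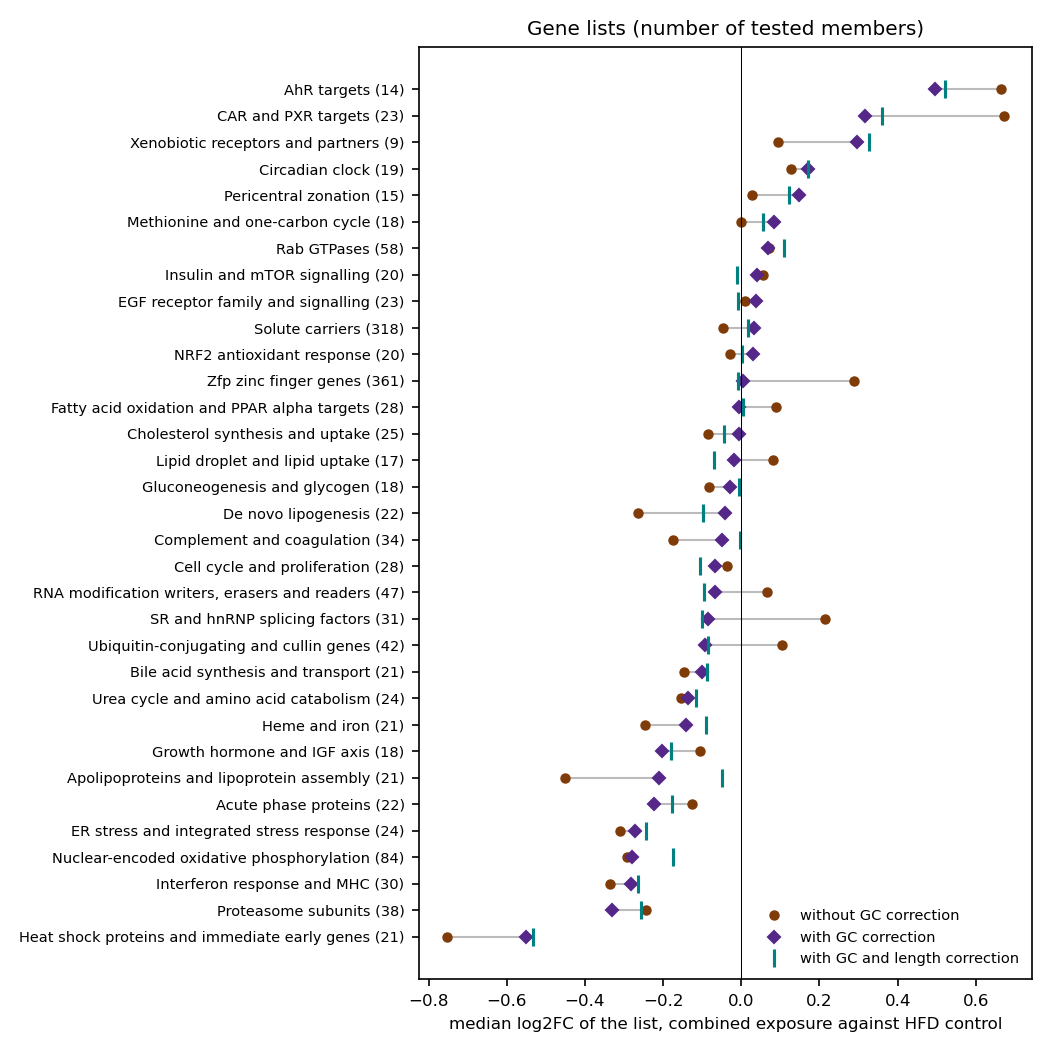
The x axis is the median log2FC of the tested members of each gene list, combined exposure against HFD control, and the y axis names the list with its number of tested members. Brown circles are without correction, purple diamonds with GC correction and teal bars with GC and length correction, and the AhR targets move from 0.66 to 0.50 while the Zfp zinc finger genes move from 0.29 to 0.0040.

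Some AhR target genes rose, among them Cyp1a2, whereas the classical target Cyp1a1 did not pass the test. Of the 14 AhR targets tested, 7 rose without correction, 3 rose with it, and none fell in either fit. The median log2FC was 0.66 without, 0.50 with GC correction and 0.52 with GC and length correction. Cyp1a2, Slc46a3 and Fmo2 rose in both fits. The promoters of Cyp1a1 and Cyp1a2 are shown because these are the best known AhR targets and lie head to head on chromosome 9. The difference between their changes was not tested, and the log2FC was 1.06 and 1.00 for Cyp1a1 and 1.00 and 1.12 for Cyp1a2. The sequences are from RefSeq (GRCm38.p6), from 250 bases before the start of transcription to 50 after it, and capitals mark the AhR core motif GCGTG searched on both strands.
Cyp1a1 (chr9:57697363-57697662, plus strand): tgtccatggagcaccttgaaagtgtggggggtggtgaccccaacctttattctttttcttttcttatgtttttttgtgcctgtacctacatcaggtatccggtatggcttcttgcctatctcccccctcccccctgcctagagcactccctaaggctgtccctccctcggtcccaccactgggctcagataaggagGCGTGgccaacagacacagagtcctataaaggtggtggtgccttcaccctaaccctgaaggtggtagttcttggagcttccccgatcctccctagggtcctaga
Cyp1a2 (chr9:57683606-57683905, minus strand): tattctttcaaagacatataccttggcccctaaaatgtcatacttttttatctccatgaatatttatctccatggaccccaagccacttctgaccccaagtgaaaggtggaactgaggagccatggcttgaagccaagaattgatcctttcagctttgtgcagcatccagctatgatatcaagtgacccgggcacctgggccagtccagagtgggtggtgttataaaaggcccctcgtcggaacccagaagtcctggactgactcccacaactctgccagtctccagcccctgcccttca
The motif was found once in the Cyp1a1 window and was not found in the Cyp1a2 window. Windows of the same length held it in 6 of the 11 AhR targets with a listed promoter (54.5%) and in 47.8% of all 12071 promoters of tested genes.

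Cyp1a2 (chromosome 9, 57676937 to 57683703, GRCm38), a hepatic cytochrome P450 that oxidizes aromatic amines and caffeine, was at 249, 356, 374, 437 and 517 CPM in the 5 HFD control mice and at 537, 632, 856, 858 and 992 CPM in the 5 mice with the combined exposure. Every exposed mouse lay above every control mouse. The difference was 2.00-fold (log2FC 1.00, SE 0.23, adjusted p = 0.00325), and 2.17-fold with correction (log2FC 1.12, SE 0.24, adjusted p = 0.0083). PCB 126 alone gave 1120.0, 1127, 1495, 1608 and 2601 CPM, above all mice of the combined exposure. The level with both agents was therefore between those of the vehicle and of PCB 126, with a log2FC of -1.04 against PCB 126 alone (adjusted p = 0.0144). After correction this was -0.95 (adjusted p = 0.0684), which did not pass.

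Cyp1a1 (chromosome 9, 57687928 to 57703824), the most inducible of the AhR targets, was at 0.219, 0.458, 0.645, 0.799 and 0.940 CPM in the control mice and at 0.792, 0.875, 1.13, 1.19 and 2.62 CPM in the combined exposure. The groups overlapped, and the difference did not pass the test in either fit (log2FC 1.06, SE 1.10, adjusted p = 0.502 without correction, and log2FC 1.00, adjusted p = 0.667 with it). The 5 mice with PCB 126 alone had 4.09, 4.60, 7.80, 62.1 and 314 CPM. Thus all mice given PCB 126 alone were above all mice given PCB 126 with Aroclor 1260, although their own spread was wide. The log2FC of the combined exposure against PCB 126 alone was -5.87 (adjusted p = 0.0136), and -5.96 (adjusted p = 0.0581) after correction.

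Slc46a3 (chromosome 5, 147878437 to 147894815), which encodes a lysosomal transporter, had the smallest adjusted p of the list. It was at 18.9, 30.4, 35.5, 36.98 and 39.5 CPM in HFD control and 58.4, 65.7, 80.1, 82.2 and 83.01 CPM in the combined exposure, again without overlap (log2FC 1.19, SE 0.18, adjusted p = 0.000542, with correction log2FC 1.17, SE 0.18, adjusted p = 0.00297). PCB 126 alone gave 74.1 to 122 CPM and Aroclor alone 34.7 to 56.3 CPM. Fmo2 (chromosome 1, 162874317 to 162898726), a flavin-containing monooxygenase, rose from 11.2, 12.1, 13.9, 15.6 and 22.7 CPM to 26.7, 33.2, 43.9, 48.1 and 50.1 CPM (log2FC 1.42, SE 0.22, adjusted p = 0.000582, with correction log2FC 1.01, SE 0.23, adjusted p = 0.0121). With PCB 126 alone it was at 19.9 to 30.6 CPM, which overlapped the combined exposure, with a log2FC of 0.74 (adjusted p = 0.0288) for the combined exposure against PCB 126 and 0.42 (adjusted p = 0.301) after correction. Ugt1a6a, Ugt1a6b and Ugdh passed only without correction, with log2FC values of 0.60, 0.71 and 0.37 before it and 0.31, 0.49 and 0.0043 after it. The genes of the Ugt1a locus share exons and their reads cannot be divided with certainty.

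The remaining AhR genes were low or variable, apart from Htatip2. Cyp1b1, another AhR-inducible P450, was at 0.496 to 4.39 CPM in control and 0.554 to 6.84 CPM in exposed mice, and Ahrr, the AhR repressor, did not reach 1 CPM in any of these mice. Tiparp, an ADP-ribosyltransferase that restrains AhR, was at 3.66, 5.53, 5.70, 7.30 and 18.3 CPM in control and 7.77, 10.2, 14.1, 18.3 and 20.004 CPM in exposed mice, where the highest control mouse lay within the exposed range (adjusted p = 0.102 and, with correction, 0.674). Nqo1, a quinone reductase, was at 5.97 to 18.97 CPM and 13.2 to 16.9 CPM (adjusted p = 0.206 and 0.791). Aldh3a1 did not pass either. Htatip2, at a mean of 38.9 CPM in control and 34.0 CPM in exposed mice, passed in neither fit (log2FC -0.20 and -0.060).

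**Figure D3:**
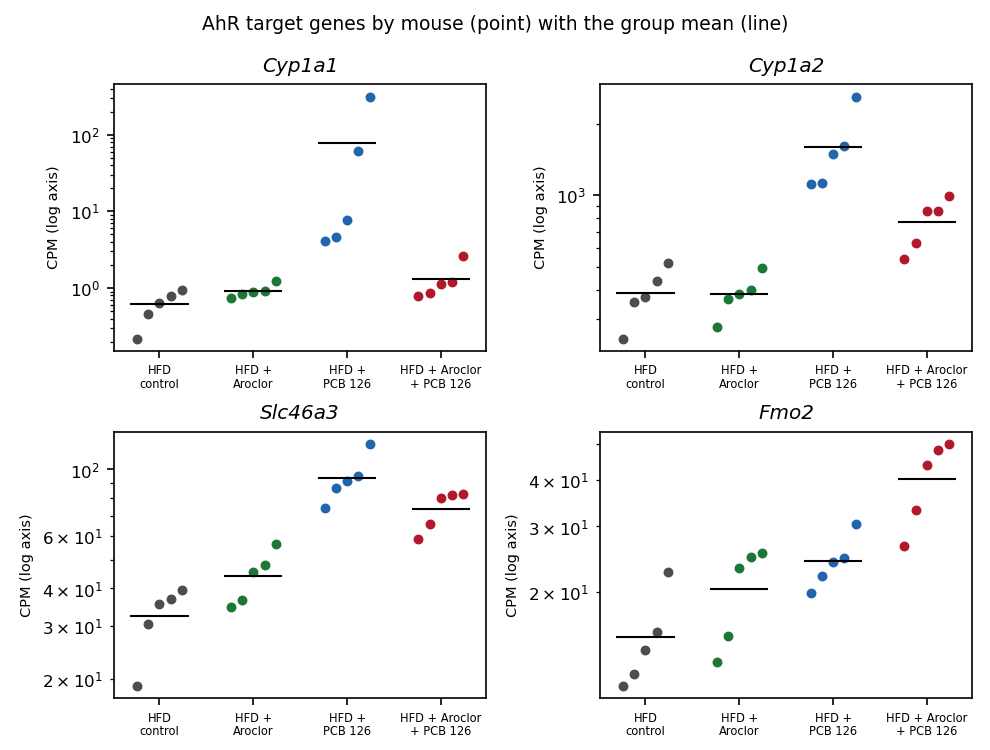
Each point is the CPM of 1 mouse (log axis) for Cyp1a1, Cyp1a2, Slc46a3 and Fmo2 in the 4 groups on the x axis, and the line is the group mean. For Cyp1a2, the combined exposure (537 to 992 CPM) lies between HFD control (249 to 517 CPM) and PCB 126 alone (1120.0 to 2601 CPM).

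Of the receptors themselves, Arnt rose in both fits and Nr1i3 only with correction. Arnt (chromosome 3, 95434388 to 95497240), the partner of AhR, was at 24.8, 28.2, 29.02, 34.9 and 39.8 CPM in control and 43.4, 46.9, 50.2, 52.9 and 53.4 CPM in exposed mice, without overlap (log2FC 0.66, SE 0.12, adjusted p = 0.00104, with correction log2FC 0.48, SE 0.097, adjusted p = 0.00649). Ahr was at 21.7, 27.9, 29.96, 37.9 and 58.05 CPM in control and 32.5, 48.1, 60.03, 66.9 and 68.02 CPM in exposed mice, with an adjusted p of 0.0674 before and 0.372 after correction. Nr1i3, which encodes CAR, was at 225, 331, 371, 623 and 686 CPM in control mice and 548, 592, 628, 658 and 662 CPM in exposed mice, and its wide control range overlapped the narrow exposed range. It passed with correction (log2FC 0.71, SE 0.21, adjusted p = 0.0405) but not without (log2FC 0.47, adjusted p = 0.13), and its annotated span overlaps Tomm40l. The corrected call was lost in 8 of the 10 fits that left out 1 mouse, the exceptions being HFD control replicates 1 and 2 (adjusted p = 0.0540 to 0.0961). Nr1i2, which encodes PXR, did not pass (log2FC 0.094 and 0.30). Keap1 and Rxra fell without correction (log2FC -0.54 and -0.54), and neither passed with it.

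No target gene of CAR and PXR passed in both fits. Without correction 7 of 23 rose and none fell (median log2FC 0.67), whereas with correction none passed edgeR's test in either direction, 5 having an unadjusted p under 0.05 (median 0.32, and 0.36 with length). The median stayed above that of all genes. Only 1 of the 23 genes had groups that did not overlap before correction, against 18.8% of all tested genes. Cyp3a11 (chromosome 5, 145854426 to 145879964), the main PXR-responsive P450 of mouse liver, was at 1893, 2167, 2312, 3116 and 3394 CPM in control and 3267, 4524, 4661, 5495 and 5866 CPM in exposed mice before correction (log2FC 0.89, SE 0.23, adjusted p = 0.00652). After correction the ranges were 1971 to 4349 and 2974 to 4494 CPM (log2FC 0.32, SE 0.25, adjusted p = 0.475), and Cyp3a11 has a low GC content of 40.7%. Cyp2b10 (chromosome 7, 25897620 to 25926624), the standard CAR target, was at 0.351, 1.94, 2.33, 6.48 and 6.62 CPM in control and 1.43, 7.09, 11.9, 12.5 and 25.7 CPM in exposed mice. Its log2FC was nearly the same in the 2 fits (1.72 and 1.73), but the spread was wide and it did not pass (adjusted p = 0.083 and 0.154). Aroclor alone gave 2.89 to 30.7 CPM and PCB 126 alone 0.530 to 9.99 CPM. Cyp2c29, Cyp2c50, Cyp2c54, Cyp3a13, Slco1a4 and Abcc2 were the other members that passed only without correction, with log2FC values of 0.56 to 1.05. Cyp2c55 (log2FC 0.67 and 0.14) and Gstm3 (log2FC -0.21 and 0.015) did not pass.

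Core clock genes changed in both directions. Of 19 circadian clock genes, 5 rose and 5 fell without correction, 4 rose and 3 fell with it, and 6 changed in both fits. Nr1d1, Npas2 and Bhlhe41 fell, whereas Cry1 and Hlf were among those that rose, and all 6 also passed with GC and length correction. The number that rose with correction was 2 without combined exposure replicate 5. The promoters of Nr1d1, Cry1 and Bhlhe41 are shown because CLOCK, NPAS2 and ARNTL act on clock genes through the E-box, and capitals mark the E-box CACGTG, which reads the same on both strands.
Nr1d1 (chr11:98775328-98775627, minus strand): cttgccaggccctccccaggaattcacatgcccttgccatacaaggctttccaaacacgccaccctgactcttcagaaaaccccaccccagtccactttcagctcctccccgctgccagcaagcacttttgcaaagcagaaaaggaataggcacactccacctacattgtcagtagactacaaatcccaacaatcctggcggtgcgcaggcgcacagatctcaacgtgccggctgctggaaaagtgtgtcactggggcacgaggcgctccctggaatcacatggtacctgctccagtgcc
Cry1 (chr10:85185005-85185304, minus strand): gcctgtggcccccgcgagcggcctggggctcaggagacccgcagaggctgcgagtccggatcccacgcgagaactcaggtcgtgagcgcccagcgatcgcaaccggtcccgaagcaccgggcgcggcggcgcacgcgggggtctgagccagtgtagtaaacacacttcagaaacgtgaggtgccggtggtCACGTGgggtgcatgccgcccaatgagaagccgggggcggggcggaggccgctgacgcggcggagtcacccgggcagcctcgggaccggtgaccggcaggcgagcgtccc
Bhlhe41 (chr6:145865371-145865670, minus strand): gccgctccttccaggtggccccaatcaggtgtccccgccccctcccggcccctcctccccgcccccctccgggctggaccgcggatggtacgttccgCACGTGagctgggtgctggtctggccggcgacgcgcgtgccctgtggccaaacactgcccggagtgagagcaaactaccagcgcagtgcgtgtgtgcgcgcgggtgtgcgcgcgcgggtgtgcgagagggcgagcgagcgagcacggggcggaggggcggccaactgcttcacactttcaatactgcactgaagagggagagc
The window of Cry1, which rose, and that of Bhlhe41, which fell, each held 1 E-box, and that of Nr1d1 held none of these letters. The E-box was in 5 of the 16 clock genes with a listed promoter (31.2%) and in 9.41% of all 12071 promoters.

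Nr1d1 (chromosome 11, 98767932 to 98775333), which encodes the heme-binding repressor REV-ERB alpha, was at 61.01, 62.2, 66.1, 70.3 and 71.3 CPM in the control mice and at 10.03, 15.2, 17.9, 21.3 and 26.8 CPM in the combined exposure. The fall left no overlap and was more than the spread within either group (log2FC -1.86, SE 0.26, adjusted p = 0.000487, with correction log2FC -1.41, SE 0.20, adjusted p = 0.00126). With Aroclor alone the level was 32.8, 38.4, 53.9, 66.5 and 68.8 CPM and with PCB 126 alone 16.05, 23.5, 32.1, 34.4 and 40.1 CPM. The combined exposure lay below Aroclor alone in every mouse (log2FC -1.51, adjusted p = 0.0269, with correction -1.20, adjusted p = 0.0244), and its range overlapped that of PCB 126 alone. Nr1d1 overlaps the gene Thra on the opposite strand, and since the sources used here do not say whether counting was by strand, reads of the 2 genes may not be fully separated.

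Cry1 (chromosome 10, 85131700 to 85185064), a repressor of the CLOCK complex, was at 3.21, 3.25, 5.33, 5.56 and 6.03 CPM in control and 10.7, 11.7, 12.4, 13.3 and 15.6 CPM in exposed mice, without overlap (log2FC 1.45, SE 0.26, adjusted p = 0.00104, with correction log2FC 1.41, SE 0.26, adjusted p = 0.00414). With PCB 126 alone Cry1 was at 5.83 to 12.3 CPM, which overlapped the combined exposure. Bhlhe41 (chromosome 6, 145858243 to 145865558), a transcriptional repressor of the clock, fell from 6.18, 10.3, 13.7, 14.6 and 15.4 CPM to 4.00, 5.77, 6.87, 7.62 and 7.83 CPM, and the lowest control mouse lay within the exposed range (log2FC -0.91, SE 0.24, adjusted p = 0.00775, with correction log2FC -1.09, SE 0.25, adjusted p = 0.0129). Npas2, which can stand in for CLOCK, was at 0.343 to 1.05 CPM in control and 0.0350 to 0.132 CPM in exposed mice (log2FC -2.85, and -2.62 with correction), levels that rest on few reads. Hlf, a PAR bZIP factor, rose from 47.9 to 79.2 to 98.1 to 114 CPM (log2FC 0.72 and 0.45).

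Other clock genes did not follow. Arntl (1.26 to 4.04 CPM in control and 2.06 to 4.14 CPM in exposed mice), Clock, Cry2, Ciart, Tef, Nfil3, Per3 and Bhlhe40 did not pass in either fit. Dbp, a direct clock output, passed only without correction (log2FC -1.01 and -0.46), as did Per1 (-0.65 and 0.035), Nr1d2 (0.54 and 0.17) and Rora (0.63 and 0.29). Per2 passed only with correction (0.13 and 0.45). The hour of collection of each mouse is not given in the sources used here, and clock genes change with it.

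Several heat shock protein genes were lower in the combined exposure than in HFD control, where they were uneven. Of the 21 genes in the list, which held heat shock and immediate early genes and the metallothioneins Mt1 and Mt2, none rose. Without correction 9 fell, with it 6 fell, and 5 fell in both. Mt1 (log2FC -0.75 and -0.43) and Mt2 (-0.70 and -0.46) passed in neither fit. The median log2FC of the list was -0.75 without, -0.55 with GC correction and -0.53 with GC and length correction. The 5 were Hsph1, Dnajb1, Hspb1, Hspa8 and Hsp90ab1. Dnaja1 (log2FC 0.011 and -0.42) fell only with correction, and no immediate early gene passed with it. Over the fits that left out 1 mouse, the number that fell with correction went from 3 (without HFD control replicate 5 or combined exposure replicate 5) to 8 (without HFD control replicate 1 or 2).

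Hsph1 (chromosome 5, 149614287 to 149636376), a nucleotide exchange factor for HSP70, was at 36.4, 55.9, 174, 306 and 214 CPM in HFD control replicates 1 to 5 and at 48.2, 68.96, 47.3, 40.5 and 45.1 CPM in combined exposure replicates 1 to 5. Control replicates 1 and 2 were as low as the exposed mice, and control replicates 3, 4 and 5 were above all of them (log2FC -1.65, SE 0.44, adjusted p = 0.00764, with correction log2FC -1.83, SE 0.44, adjusted p = 0.0152). Dnajb1 (chromosome 8, 83608193 to 83612653), an HSP40 co-chaperone, had the same pattern, with 19.7, 20.3, 49.5, 135 and 83.8 CPM in control replicates 1 to 5 and 19.2, 24.7, 16.5, 14.03 and 14.3 CPM in exposed replicates 1 to 5 (log2FC -1.79, SE 0.39, adjusted p = 0.00228, with correction log2FC -1.68, SE 0.39, adjusted p = 0.0133). Hspa8, the constitutive HSP70, was at 673, 777, 1049.5, 1458 and 1749.9 CPM in control and 539, 541, 555, 593 and 744 CPM in exposed mice (log2FC -0.94 and -0.998). Hspb1 (chromosome 5, 135887919 to 135889563), the small heat shock protein HSP27, was the member of the 5 without overlap before correction, at 8.84, 9.07, 13.5, 30.4 and 35.3 CPM in control and 1.31, 2.38, 4.44, 4.51 and 7.70 CPM in exposed mice (log2FC -2.25, SE 0.51, adjusted p = 0.00289). After correction its ranges overlapped (6.12 to 31.9 and 2.53 to 8.55 CPM), while it still passed (log2FC -1.66, SE 0.48, adjusted p = 0.0348). With GC and length correction neither Hspb1 (adjusted p = 0.0569) nor Hsp90ab1 (log2FC -0.53, adjusted p = 0.0509) passed.

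The inducible HSP70 gene Hspa1b (chromosome 17, 34956436 to 34959238) reached 1.88, 3.22, 31.8, 41.4 and 104 CPM in control and 1.45, 1.71, 2.03, 4.97 and 8.94 CPM in exposed mice. Its fall passed without correction (log2FC -3.26, SE 0.93, adjusted p = 0.0111) and not with it (adjusted p = 0.0621), as did that of Hspa1a (log2FC -2.56 and -2.12), a near-identical copy with which it shares reads. Among the immediate early genes, Junb and Ier2 passed only without correction (log2FC -1.58 and -0.69, and -0.90 and -0.098). Jun (0.11 and 0.54), Fosb (-0.015 and 0.49), Zfp36 (-0.11 and 0.26) and Fos (-0.096 and 0.20) passed in neither fit. Egr1 (-1.10 and -0.68) and Atf3 (-0.67 and -0.61) did not pass either. The promoters of Hspa1b, Hsph1 and Hspb1 are shown because the heat shock factor binds inverted repeats of the motif core in them, and capitals mark matches to GAANNTTC, which reads the same on both strands.
Hspa1b (chr17:34959189-34959488, minus strand): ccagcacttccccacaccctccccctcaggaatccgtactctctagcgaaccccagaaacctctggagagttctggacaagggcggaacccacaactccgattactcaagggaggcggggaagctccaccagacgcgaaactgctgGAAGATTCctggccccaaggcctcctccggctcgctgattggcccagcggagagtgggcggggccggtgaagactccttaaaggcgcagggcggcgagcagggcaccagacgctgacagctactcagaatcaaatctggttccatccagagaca
Hsph1 (chr5:149636287-149636586, minus strand): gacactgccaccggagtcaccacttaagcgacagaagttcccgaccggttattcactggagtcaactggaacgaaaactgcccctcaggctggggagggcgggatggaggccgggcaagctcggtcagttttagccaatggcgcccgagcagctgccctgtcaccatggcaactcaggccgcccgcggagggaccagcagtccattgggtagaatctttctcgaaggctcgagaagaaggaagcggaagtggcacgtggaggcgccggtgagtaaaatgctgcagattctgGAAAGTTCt
Hspb1 (chr5:135887669-135887968, plus strand): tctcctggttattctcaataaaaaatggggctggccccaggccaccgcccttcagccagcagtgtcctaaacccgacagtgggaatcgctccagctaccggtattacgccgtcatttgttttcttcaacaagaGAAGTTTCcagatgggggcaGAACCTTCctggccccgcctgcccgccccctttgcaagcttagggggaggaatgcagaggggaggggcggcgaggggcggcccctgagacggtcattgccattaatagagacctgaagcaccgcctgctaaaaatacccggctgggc
The windows of Hspa1b and Hsph1 each held 1 match and that of Hspb1 held 2. A match was present in 7 of the 16 members of the list with a listed promoter (43.8%) and in 5.82% of all 12071 promoters. Hsph1 has 2 listed promoters, of which the first was used.

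**Figure D4:**
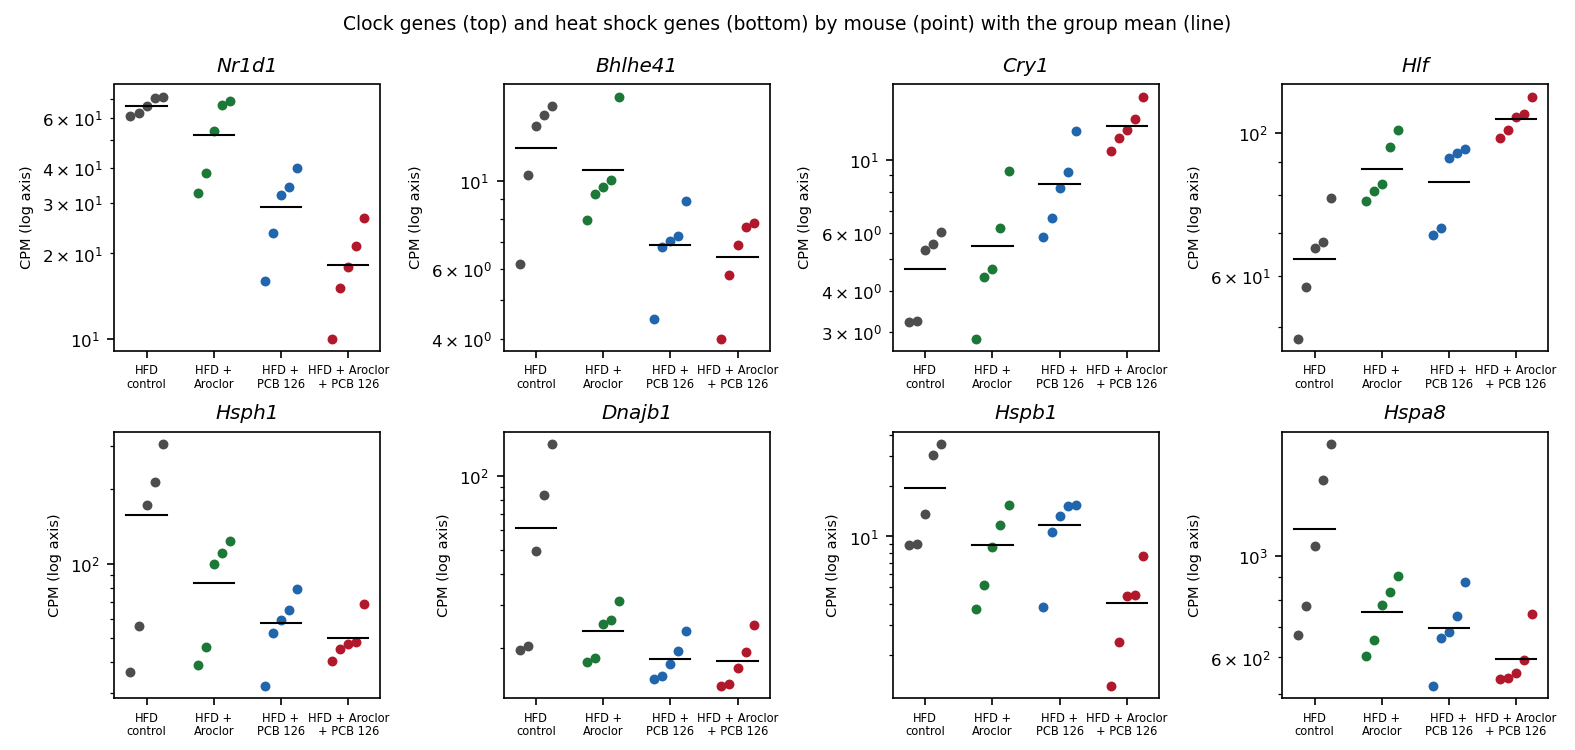
Each point is the CPM of 1 mouse (log axis) in the 4 groups on the x axis, with the group mean as a line, for 4 clock genes (top row) and 4 heat shock genes (bottom row). Nr1d1 goes from 61.01 to 71.3 CPM in HFD control to 10.03 to 26.8 CPM in the combined exposure, while for Hsph1 the control mice are spread from 36.4 to 306 CPM around the exposed range of 40.5 to 68.96 CPM.

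Hspa5 and Ddit3 were the genes of the endoplasmic reticulum stress list that fell in both fits. Of 24 genes of the ER stress and integrated stress response, 1 rose (4.17%, against 15.8% of all genes) and 6 fell (25%, against 17%) without correction. With correction 1 rose and 3 fell, where 3.73% of all genes rose and 5.35% fell. The median log2FC was -0.31 and -0.27. Atf6 rose only without correction (log2FC 0.36 and 0.042). Sesn2 rose only with it (0.042 and 0.70) and also passed with GC and length correction. The number that fell with correction was 1 in 6 of the 10 fits that left out 1 mouse, and 6 without HFD control replicate 1. Hspa5 (BiP), the main chaperone of the endoplasmic reticulum, was at 493, 602, 905, 1386 and 1739.9 CPM in control and 467, 499.9, 560.1, 629.7 and 757 CPM in exposed mice, so that control replicates overlapped the exposed group (log2FC -0.81, SE 0.29, adjusted p = 0.0367, with correction log2FC -1.04, SE 0.29, adjusted p = 0.0307). Ddit3 (CHOP), a transcription factor induced by the unfolded protein response, fell from 4.79, 6.09, 8.39, 8.95 and 12.7 CPM to 2.10, 2.33, 2.62, 3.41 and 5.53 CPM (log2FC -1.35, SE 0.29, adjusted p = 0.00228, with correction log2FC -1.28, SE 0.29, adjusted p = 0.0114). The span of Ddit3 overlaps Mars. Hsp90b1 fell only with correction (log2FC -0.16 and -0.57), and Creld2, Manf, Chac1 and Trib3 fell only without it. The chaperones and folding enzymes Calr, Canx, Pdia3, Pdia4, Pdia6 and Dnajb9 passed in neither fit.

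Proteasome subunit genes fell more often than they rose. Of 38 tested, 1 rose and 17 fell without correction, none rose and 19 fell with it, and 11 fell in both fits. The median log2FC was -0.24 without, -0.33 with GC correction and -0.26 with GC and length correction, where 17 fell. With library GC slope as a covariate it was -0.094. The 19 of 38 compare with 5.35% of all genes that were lower with correction. The median of its members in each mouse, taken relative to the mean of the control mice and with correction, was -0.051 to 0.060 on the log2 scale in the HFD control mice and -0.43 to -0.27 in the exposed mice. Leaving out each mouse in turn left 11 (without combined exposure replicate 4 or 5) to 18 members lower with correction. Psmd4 (chromosome 3, 95032694 to 95042614), the ubiquitin receptor of the regulatory particle, was at 144, 153, 162, 162 and 163 CPM in control and 65.01, 79.8, 86.9, 96.9 and 98.3 CPM in exposed mice, without overlap (log2FC -0.87, SE 0.14, adjusted p = 0.00067, with correction log2FC -0.59, SE 0.11, adjusted p = 0.00414). Psmb3 (chromosome 11, 97703399 to 97713500), a subunit of the catalytic core, was at 49.8, 59.4, 62.04, 62.5 and 66.9 CPM and 25.1, 31.8, 39.2, 39.3 and 42.1 CPM (log2FC -0.76, SE 0.15, adjusted p = 0.00165, with correction log2FC -0.71, SE 0.15, adjusted p = 0.00742). Both catalytic core and regulatory particle were represented among the 11, with Psmb2, Psmb5, Psmb6 and Psma7 of the core, the ATPases Psmc2, Psmc3 and Psmc5, and Psmd3 and Psmd9. Psmc6 was the member that rose without correction (log2FC 0.29 and -0.20), and it did not pass with it.

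Genes for nuclear-encoded subunits of oxidative phosphorylation fell more often than they rose in these fits, but their number depended on gene length and their direction on the form of the adjustment. Of 84 tested, 3 rose and 35 fell without correction, none rose and 18 fell with it, and 16 fell in both fits (median log2FC -0.29 and -0.28). These are short genes, with a median length of 1578 bases against 4275 for all tested genes. With GC and length correction 6 rose and 10 fell (median -0.17), and 9 fell in all 3 fits. With library GC slope as a covariate, a term in which the groups did not overlap, the median turned to 0.17 and the log2FC of Ndufb7 to 0.22. The number that fell with GC correction was 4 without combined exposure replicate 4 or 5, 6 without HFD control replicate 1, 7 without HFD control replicate 3 and 25 without HFD control replicate 4. Ndufb7 (chromosome 8, 83566671 to 83571626), a subunit of complex I, was at 24.7, 39.1, 40.1, 56.7 and 59.9 CPM in control and 7.78, 13.01, 17.9, 22.8 and 23.8 CPM in exposed mice, without overlap (log2FC -1.37, SE 0.29, adjusted p = 0.00213, with correction log2FC -1.10, SE 0.25, adjusted p = 0.0121). Cox7c of complex IV (log2FC -0.63 and -0.99), Atp5g1 of the ATP synthase (-0.68 and -0.86), and Ndufa2 (-0.91 and -0.84), Ndufa7 (-0.90 and -0.75), Ndufs7 (-1.31 and -0.70) and Ndufv3 (-0.69 and -0.49) of complex I fell in all 3 fits, as did Uqcrq of complex III (-0.73 and -0.65) and Cox7a2 of complex IV (-0.34 and -0.56). Genes for ribosomal proteins and the mitochondrially encoded mRNAs were not analysed here.

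**Figure D5:**
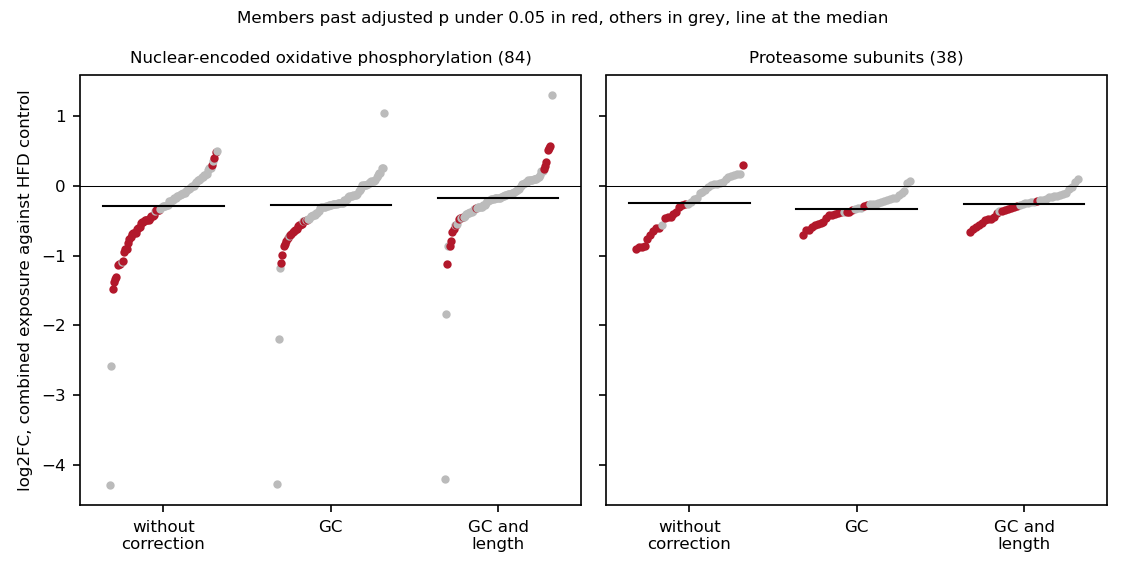
Each point is the log2FC of 1 gene, combined exposure against HFD control (y axis), for 84 oxidative phosphorylation genes (left) and 38 proteasome genes (right) in the 3 fits on the x axis. Red marks members past an adjusted p of 0.05 and the line is the median, which goes from -0.29 to -0.17 for oxidative phosphorylation and from -0.24 to -0.26 for the proteasome between the fit without correction and that with GC and length.

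Isg15, Usp18, Ifi27 and Irf9 were the interferon-stimulated genes that fell in both fits. Of 30 interferon response and MHC genes, none rose, 13 fell without correction, 5 fell with it and 4 fell in both (median log2FC -0.34 and -0.28). With library GC slope as a covariate the median turned to 0.053. Isg15 (chromosome 4, 156199424 to 156200818), a ubiquitin-like modifier, was at 15.6, 16.5, 16.7, 19.3 and 30.6 CPM in control and 5.60, 6.16, 8.18, 8.93 and 12.5 CPM in exposed mice, without overlap (log2FC -1.25, SE 0.23, adjusted p = 0.0011, with correction log2FC -1.11, SE 0.23, adjusted p = 0.00672). Usp18 (chromosome 6, 121245906 to 121270917), the protease that removes ISG15, was at 23.1, 28.8, 34.5, 38.7 and 44.5 CPM and 14.6, 15.5, 17.2, 18.95 and 22.8 CPM (log2FC -0.93, SE 0.17, adjusted p = 0.00104, with correction log2FC -1.02, SE 0.17, adjusted p = 0.00352). With Aroclor alone every mouse was above the combined exposure for both genes (13.7 to 21.97 CPM for Isg15 and 25.9 to 35.8 CPM for Usp18), and with PCB 126 alone the ranges overlapped it (10.496 to 22.3 and 19.5 to 32.2 CPM). Ifi27 had a log2FC of -0.66 and -0.55, and Irf9, a subunit of the interferon-activated transcription factor, of -0.42 and -0.39. The antigen-processing genes Tap1, Tap2 and Psmb8, and H2-K1 and H2-D1, fell only without correction. B2m fell only with it (log2FC 0.13 and -0.39). With GC and length correction neither B2m (log2FC -0.11, adjusted p = 0.361) nor Ifi27 (log2FC -0.45, adjusted p = 0.0502) passed. Leaving out a mouse gave 2 to 7 members lower with correction, the fewest without combined exposure replicate 5.

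The acute phase genes had a median log2FC of -0.13 without and -0.22 with correction, beside -0.00096 and -0.022 for all tested genes. After correction 17 of them had a negative log2FC and 5 a positive one. Some had a wide SE, such as 1.02 for Saa1 and 1.05 for Saa2 without correction. Of 22 acute phase genes none passed without correction, and Crp (log2FC -0.07 and -0.58) was the member that fell with it. By the unadjusted p of edgeR's test, 0 of the 22 were under 0.05 without correction and 4 with it. Of 34 complement and coagulation genes, 6 rose (17.6%, against 15.8% of all genes) and 7 fell (20.6%, against 17%) without correction. With correction none rose and 2 fell, and the median log2FC was -0.175 without and -0.049 with it. Mbl1, a mannose-binding lectin, fell in both fits (log2FC -0.51 and -0.58) and Serpinc1, antithrombin, fell with correction (-0.23 and -0.38).

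Apolipoprotein genes fell before correction and mostly did not after it. Of 21 genes of apolipoproteins and lipoprotein assembly, 2 rose and 12 fell without correction, whereas none rose and 2 fell with it (median log2FC -0.45 and -0.21, and -0.048 with length). Apoe (chromosome 7, 19696109 to 19699188), the ligand for remnant uptake, has a transcript GC content of 59.98%. It was at 8909, 13792, 15336, 17423 and 18414 CPM in control and 5125, 7039, 9104, 9726 and 10923 CPM in exposed mice (log2FC -0.82, SE 0.20, adjusted p = 0.00435), and with correction at 9199, 11497, 12095, 12129 and 15437 CPM and 9379, 10439, 10637, 11939.8 and 12862 CPM, where the groups overlapped (log2FC -0.13, SE 0.13, adjusted p = 0.597). Apoa1, the main protein of high-density lipoprotein, had a log2FC of -0.78 without and -0.38 with correction, and its GC content is 55.8%. Apob, the scaffold of very-low-density lipoprotein with 43.7% GC, went the other way without correction (0.55 without and 0.18 with correction). Apoc4 (-1.01 and -1.06) and Apon (-0.36 and -0.49) fell in both fits. With library GC slope as a covariate the log2FC turned to 0.17 for Apoe, -0.099 for Apob and 0.18 for Apoc4.

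Plin2 fell in both fits, and other members of the lipid and sterol lists changed in both. The share was 5.88% for lipid droplet, 4.55% for lipogenesis, 7.14% for fatty acid oxidation and 12% for cholesterol genes, against 5.73% of all genes. Plin2 (chromosome 4, 86648386 to 86670060), which coats lipid droplets, was at 1089, 1099, 1147, 1261 and 1270.3 CPM in control and 509.9, 673, 778, 794 and 1040.1 CPM in exposed mice, without overlap (log2FC -0.63, SE 0.14, adjusted p = 0.00325, with correction log2FC -0.60, SE 0.14, adjusted p = 0.0126). Of the 22 de novo lipogenesis genes none rose and 6 fell without correction, 3 fell with it (13.6%, against 5.35% of all genes), and Elovl5, a fatty acid elongase, fell in both (log2FC -0.32 and -0.58). Fasn, fatty acid synthase, passed only without correction (-0.82 and -0.24). Of 28 fatty acid oxidation genes 4 rose and 6 fell without correction and 2 rose and 1 fell with it. Acot2 (0.35 and 0.59) and Pex11a (0.41 and 0.36) were higher in both. Fabp1, the liver fatty acid binding protein, was lower with GC correction (-0.29 and -0.59) but did not pass with GC and length correction. Of 25 cholesterol genes 4 rose and 7 fell, then 3 rose and 2 fell with correction. Fdft1, squalene synthase, rose in both (0.57 and 0.70), as did Msmo1 (0.93 and 0.53), and Ebp fell (-0.30 and -0.40). The corrected call of Fdft1 was lost without combined exposure replicate 5 (adjusted p = 0.0525), and Fdft1 overlaps Ctsb.

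Akr1d1 and Ppargc1a were among the metabolic genes that rose in both fits. Akr1d1 (chromosome 6, 37530173 to 37568815), a reductase of bile acid synthesis, was at 51.9, 83.5, 113, 118 and 139 CPM in control and 201, 254, 281, 299.6 and 301 CPM in exposed mice, without overlap (log2FC 1.40, SE 0.26, adjusted p = 0.00116, with correction log2FC 0.89, SE 0.25, adjusted p = 0.0323). The corrected call was lost without HFD control replicate 5 or combined exposure replicate 1, 4 or 5 (adjusted p = 0.0601 to 0.0760). Of its list of 21 bile acid genes, 5 rose and 5 fell without correction and 1 rose and 3 fell with it. The canalicular transporters Abcb11 (-0.27 and -0.55) and Abcb4 (-0.22 and -0.57) fell only with correction, and Cyp7a1, the first enzyme of the classical pathway, rose only without it (1.34 and 0.76). Ppargc1a (chromosome 5, 51454250 to 51567726), a coactivator of mitochondrial and gluconeogenic genes, was at 4.56, 4.88, 5.56, 5.73 and 5.80 CPM and 9.54, 9.59, 10.2, 10.8 and 11.9 CPM, again without overlap (log2FC 0.97, SE 0.14, adjusted p = 0.000505, with correction log2FC 0.66, SE 0.13, adjusted p = 0.00611). It was the sole member of the 18 gluconeogenesis and glycogen genes that passed with correction. G6pc, glucose-6-phosphatase, passed only without (0.82 and 0.61).

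Cbs, Haao and Hgd of the amino acid list fell in both fits, and the transferrin receptor Tfrc rose. Of 24 urea cycle and amino acid genes, 3 rose and 10 fell without correction, none rose and 5 fell with it, and 3 fell in all 3 fits (median log2FC -0.15 and -0.14). Cbs (chromosome 17, 31608894 to 31637238), cystathionine beta-synthase of the transsulfuration pathway, was at 238, 243, 251.5, 261 and 314 CPM in control, 179, 213, 229, 234 and 235 CPM with Aroclor alone, 173, 180.1, 210.0, 218 and 226 CPM with PCB 126 alone and 71.5, 101, 131, 137 and 141 CPM with both. The combined exposure lay below the other 3 groups in every mouse (against control log2FC -1.17, SE 0.15, adjusted p = 0.000392, with correction log2FC -0.91, SE 0.12, adjusted p = 0.000979). Haao (log2FC -0.76 and -0.56) and Hgd (-0.25 and -0.40), of tryptophan and tyrosine breakdown, also fell in both fits, and Kynu and Oat only with correction. Of the 21 heme and iron genes, Tfrc (chromosome 16, 32608920 to 32632794), the transferrin receptor, was at 14.003, 18.6, 20.8, 23.00 and 24.5 CPM in control and 41.5, 49.5, 55.5, 63.6 and 64.9 CPM in exposed mice (log2FC 1.45, SE 0.19, adjusted p = 0.000416, with correction log2FC 0.83, SE 0.14, adjusted p = 0.0032). Tfrc has a GC content of 39.4%, and its log2FC dropped from 1.45 to 0.83 with the correction while the groups stayed apart. The 18 genes of the methionine and one-carbon cycle had 4 higher and 3 lower without correction and none with it by edgeR's test, where 3 had an unadjusted p under 0.05 (median log2FC with correction 0.084).

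Of the insulin and mTOR list 2 genes (10%) changed in both fits, and of the EGF receptor list 2 (8.70%). None of the growth hormone and IGF list did, and the share of all tested genes was 5.73%. Of 20 insulin and mTOR genes 8 rose and 7 fell without correction, and 1 rose and 1 fell with it, namely Insr, the insulin receptor (log2FC 0.62 and 0.33), and Eif4ebp1, a translation repressor (-0.68 and -0.72). Of 23 genes of the EGF receptor family and its signalling 9 rose and 4 fell, then 1 rose and 1 fell with correction. Gab1, an adaptor, rose in both (0.49 and 0.59), and Map2k2 (MEK2) fell in both (-1.07 and -0.49). In the growth hormone and IGF list Stat5a (0.10 and 0.57) and Igfbp3 (0.43 and 0.67) rose only with correction, and Cish, a feedback inhibitor of growth hormone signalling, fell only without it, from 6.22, 8.84, 13.3, 32.8 and 46.7 CPM to 1.49, 1.504, 3.65, 4.09 and 4.44 CPM (adjusted p = 0.0125, with correction 0.0589). Of 15 pericentral genes Tbx3, a transcription factor of the zone around the central vein, rose in both (0.54 and 0.78), though its call was lost without combined exposure replicate 4 in either fit (adjusted p = 0.0610 without and 0.0533 with correction) and, without correction, also without HFD control replicate 1 or 5. The NRF2 list of 20 had 1 gene lower in both, Taldo1 (-0.73 and -0.51), and no gene of the 28 in the cell cycle list changed in both.

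In the large gene families, as among all genes, most calls were lost with the correction. Of the 5089 genes called without it, 890 (17.5%) also passed with it in the same direction, against 6.85% of the 146 Zfp genes, 16.7% of the 12 SR and hnRNP genes and 17.6% of the 85 solute carriers called. Of 361 Zfp zinc finger genes, 110 rose and 36 fell without correction (median log2FC 0.29, median GC content 45.2%), and 10 rose and 10 fell with it (median 0.0040). Of 31 SR and hnRNP genes, 10 rose and 2 fell without correction, whereas 1 rose and 7 fell with it (median 0.21 and -0.086). Hnrnph1 (log2FC -0.039 and -0.55), Hnrnph3 (-0.20 and -0.50) and Srsf7 (0.017 and -0.44) fell only with correction, Srsf9 (-0.48 and -0.48) fell in both and Hnrnpa0 (0.29 and 0.70) rose in both. The 47 RNA modification genes, a list taken from the study, had 13 higher and 8 lower without correction and 1 higher and 8 lower with it, and because the study chose that list on these samples its counts are not independent evidence of a direction. Bud23, a methyltransferase of 7-methylguanosine (-0.77 and -0.32), and Trmt1, a tRNA methyltransferase (-0.71 and -0.27), fell in both fits. The corrected call of Bud23 was lost without HFD control replicate 3 or combined exposure replicate 4 or 5 (adjusted p = 0.0599 to 0.0863). Ythdc1, a nuclear reader of m6A, passed both with opposite signs (0.32 and -0.25). Of 318 solute carriers 44 rose (13.8%, against 15.8% of all genes) and 41 fell (12.9%, against 17%) without correction, and 19 rose and 5 fell with it. The 58 Rab GTPases had 11 higher (19.0%) and 8 lower (13.8%), then 2 and 2 with correction, with Rab8a lower in both (-0.21 and -0.27). The 42 ubiquitin-conjugating and cullin genes had 11 higher (26.2%) and 7 lower (16.7%), then none and 4 with correction. The conjugating enzyme Ube2s was lower in both (-0.79 and -0.81). The calls of Rab8a were lost in both fits without HFD control replicate 1, 3 or 5 or combined exposure replicate 4 or 5 (adjusted p = 0.0527 to 0.0786 with correction).

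The genes with the largest corrected changes, among those that passed both fits with no overlap between the groups and a mean of at least 1 CPM (525 genes, 236 higher and 289 lower), are given next. Groups that did not overlap were seen in 18.8% of all tested genes before and 8.66% after correction. Lonrf3 (chromosome X, 36328353 to 36362341), a RING finger gene, was at 0.526, 0.572, 0.679, 0.774 and 0.827 CPM in control and 1.93, 2.10, 2.13, 2.17 and 2.46 CPM in exposed mice (log2FC 1.66, SE 0.26, adjusted p = 0.000582, with correction log2FC 1.87, SE 0.26, adjusted p = 0.000998). Ildr2 (chromosome 1, 166254139 to 166316823), a membrane protein linked to hepatic lipid handling, was at 21.4, 35.3, 39.3, 56.7 and 60.5 CPM and 61.99, 83.4, 93.5, 119.8 and 134 CPM (log2FC 1.20, SE 0.25, adjusted p = 0.00184, with correction log2FC 1.58, SE 0.27, adjusted p = 0.00352). The fitted change of both genes was larger with correction than without, and the Ildr2 ranges lay next to each other without overlap. Ppp1r1b (chromosome 11, 98348404 to 98357796), which encodes the phosphatase inhibitor DARPP-32, was at 2.98, 4.94, 5.45, 7.53 and 8.28 CPM and 8.73, 9.83, 11.3, 14.1 and 16.2 CPM (log2FC 1.03, SE 0.23, adjusted p = 0.00311, with correction log2FC 1.59, SE 0.22, adjusted p = 0.000979). Lingo4 (log2FC 1.23 and 1.60), Dsg1c (2.14 and 1.68), Zxdb (1.40 and 1.42), Zfp979 (2.28 and 1.505) and Ugt1a9 (1.88 and 1.55), which shares exons with the rest of the Ugt1a locus, complete the genes that rose.

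Among those that fell, Spon2 (chromosome 5, 33198184 to 33218455), a secreted matrix protein, was at 8.33, 9.53, 11.4, 12.2 and 13.03 CPM in control and 1.49, 1.92, 2.26, 2.86 and 5.14 CPM in exposed mice (log2FC -1.99, SE 0.28, adjusted p = 0.000505, with correction log2FC -1.64, SE 0.24, adjusted p = 0.00145). Sf3b5 (chromosome 10, 13005343 to 13009183), a subunit of the SF3b splicing complex, was at 6.23, 7.19, 7.61, 10.4 and 12.5 CPM and 1.89, 2.97, 3.11, 4.53 and 4.76 CPM (log2FC -1.35, SE 0.24, adjusted p = 0.00104, with correction log2FC -1.66, SE 0.28, adjusted p = 0.00352). Fabp5 (chromosome 3, 10012548 to 10016607), a fatty acid binding protein, was at 7.28, 8.43, 8.59, 12.9 and 30.3 CPM and 3.34, 3.67, 4.18, 6.09 and 6.73 CPM, with control replicate 4 the highest (log2FC -1.49, SE 0.37, adjusted p = 0.00549, with correction log2FC -1.61, SE 0.38, adjusted p = 0.014). The same control mouse held the most muscle, fat and pancreas marker RNA, and the sum of those markers was also higher in the other control mice (16.1 to 25.6 CPM) than in most exposed mice (10.96 to 18.2 CPM, median 11.9), so that it moved with Fabp5. Its part in the result was not tested. Dpm3 (-1.90 and -1.51), a subunit of dolichol-phosphate mannose synthase, fell too. Gm49711 (-1.22 and -1.21), Mrnip (-1.28 and -1.18) and Cox16 (-0.63 and -1.17) also fell, and each of these 3 overlaps another gene (Slc5a3 for Gm49711, Sqstm1 for Mrnip, Adam4 among others for Cox16).

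Abundant liver genes were among those that passed only without correction. Selenop (log2FC 0.50 and 0.15), Car3 (0.68 and 0.33) and Aldh1a1 (0.69 and 0.29) were higher with Cyp3a11 and Apob, and Apoa2 (-0.45 and -0.30), Apoc1 (-0.73 and -0.37) and Ahsg (-0.47 and -0.33) were lower with Apoe and Apoa1. Among the most abundant of the 24 genes with opposite signs were Cebpa, Ttc36 (-0.40 and 0.47), Sec63, a translocation factor of the endoplasmic reticulum (0.27 and -0.24), and the initiation factor subunit Eif3e (0.36 and -0.36). Cebpa (chromosome 7, 35119293 to 35121928), a transcription factor that maintains hepatocyte identity, has 61.2% GC. Before correction it was at 277, 281, 305, 312 and 349.8 CPM in control and 193, 249.7, 251, 260.3 and 270.2 CPM in exposed mice, with every exposed mouse lower (log2FC -0.32, SE 0.098, adjusted p = 0.0178). After correction it was at 228, 236, 237, 254 and 289.7 CPM and 299, 300.1, 349, 372 and 381 CPM, with every exposed mouse higher (log2FC 0.45, SE 0.11, adjusted p = 0.0152). The direction of Cebpa therefore differed between the fits. Of the 10 fits that left out 1 mouse, the corrected call was lost in 1 for Cebpa (without combined exposure replicate 5, adjusted p = 0.0530), 3 for Ttc36, 8 for Sec63 and 10 for Eif3e, and the uncorrected call in 2 for Cebpa, 5 for Apoa2, 6 for Car3, 7 for Sec63 and 8 for Ttc36.

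Against each single exposure, fewer genes differed. The combined exposure and Aroclor alone differed at 64 genes (0.412%) without correction and at 5 genes (0.0322%) with it. The 5 genes were Nr1d1, Cbs, Spon2 and Camk1d, which were lower with both agents, and Col27a1, a fibrillar collagen, which was higher. Camk1d, a calcium-dependent kinase, was at 24.2, 25.1, 26.3, 31.1 and 31.2 CPM with Aroclor alone and 14.03, 15.3, 16.7, 16.9 and 19.7 CPM with both (log2FC -0.74, adjusted p = 0.0489, with correction -0.82, adjusted p = 0.0244). Spon2 was at 5.69, 6.45, 10.7, 12.1 and 13.1 CPM with Aroclor alone, above all 5 mice of the combined exposure, and its log2FC with correction was -1.56 (adjusted p = 0.0171). The combined exposure and PCB 126 alone differed at 2589 genes (16.7%) without correction and at 0 genes (0%) with it, where 3107 genes had an unadjusted p under 0.05 in edgeR's test. No gene passed for the interaction, that is the log2FC of the combined exposure minus those of Aroclor and of PCB 126, in either fit, while 1846 genes without and 1685 with correction had an unadjusted p under 0.05. All these contrasts share the same exposed or control mice.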

How the data were processed

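Liver polyA RNA was sequenced from 5 mice in each of 4 groups (TruSeq Stranded mRNA libraries, 2 sequencing runs), of which the HFD control and HFD + Aroclor + PCB 126 groups are compared here. The authors checked reads with FastQC 0.10.1, used STAR 2.6 for alignment (genome GRCm38.p6) and HTSeq 0.10.0 for counting, and they deposited the raw read counts of all libraries as 1 table. Whether counting was by strand is not given in the sources used here. The column of 1 PCB 126 library carries another number than its title, and the title was followed.

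Genes with a total under 10 counts over the 20 libraries were left out. The remaining 15522 were fitted on the counts as deposited with edgeR 4.0.16 (R 4.3.3, limma 3.58.1), with TMM factors, all 4 groups in 1 fit and the quasi-likelihood test, adjusted by Benjamini and Hochberg over all genes, with 0.05 as the threshold. For the GC correction, the deviation of each library from the mean of the 20 was smoothed over the GC content of each gene's transcripts (GENCODE M21, 15516 genes with a value, natural spline with 6 degrees of freedom, fitted over genes of at least 1 CPM) and used as an offset. Another fit did this over GC content and length. Scripts were tested on simulated data. Replicates were compared in 20 pairs, and every pair differed by more than counting noise (chi-square over degrees of freedom at least 28.24). Marker sums and slopes were compared by two-sided exact permutation tests over all splits of the 10 mice, where the smallest p is 0.00794.

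The gene lists, and the comparison itself, were chosen with earlier results of these data known. Genes were named by a rule: exposure markers, the 8 largest corrected changes in each direction among genes that passed both fits without overlap, 1 gene per list, the 5 most abundant genes that passed only without correction in each direction (log2FC beyond 0.34), and the 5 most abundant with opposite signs. This rule gave 63 genes, 10 of which overlap another gene, and some items are not reported here. Alternatives were RLE and upper-quartile factors, DESeq2 1.42.0, other filters, a replicate block, GC slope as a covariate, other forms of the correction, and leaving out each mouse. Replicates are separate mice, and their number sets the precision.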

Additional observations from a re-analysis of the deposited data

Results flagged for a closer look

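Of 156 groups of 5 mice examined, 9 (5.77%) held a mouse far from the other 4, and chance flags about 1 in 20. Combined exposure replicate 5 had 2.62 CPM of Cyp1a1, where the other exposed mice had 0.792 to 1.19 CPM. Cyp1b1 was high in replicate 4 of both groups, at 4.39 CPM against 0.496 to 1.15 CPM in HFD control and at 6.84 CPM against 0.554 to 1.43 CPM in the combined exposure. HFD control replicate 5 had 18.3 CPM of Tiparp against 3.66 to 7.30 CPM. HFD control replicate 4 had 30.3 CPM of Fabp5 against 7.28 to 12.9 CPM, and 75.8 CPM of summed adipocyte, muscle and pancreas markers against 16.1 to 25.6 CPM. Isg15 was at 30.6 CPM in HFD control replicate 3 against 15.6 to 19.3 CPM. Combined exposure replicate 4 was the lowest of its group for Ube2s, a ubiquitin-conjugating enzyme (1.38 CPM against 2.59 to 3.04 CPM), and for Cebpa (193 CPM against 249.7 to 270.2 CPM). The causes were not tested.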

How the results depend on the processing

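The number of genes that differed without correction was 4974 to 5577 under other scaling factors, DESeq2 and filters on low counts other than that on FPKM (4704), and 4143 in a fit of the 10 libraries alone. It was 2867 at an adjusted p of 0.01 and 518 (32 higher, 486 lower) with library GC slope as a covariate, a term in which the groups did not overlap. After correction the number was 908 in a fit of the 10 libraries alone, 259 at an adjusted p of 0.01, and 1293 to 2093 under the other alternatives. Leaving out 1 mouse gave 3887 to 5665 genes without and 576 to 1522 with correction, and a GC slope difference of -0.723 to -0.586. In the covariate fit the log2FC of reported genes changed sign for Apoc4 (0.18), Eif4ebp1 (0.085), Ndufb7 (0.22), Psmb3 (0.029), Apob (-0.099), Apoe (0.17), Apoa2 (0.19), Apoc1 (0.22), Cebpa (0.049), Ttc36 (0.29), Sec63 (-0.15) and Eif3e (-0.0049), as did the medians of the interferon (0.053) and oxidative phosphorylation lists (0.17), and none of these genes passed. Of the named genes called, 44 of 52 without and 32 of 43 with correction stayed past the threshold with any mouse left out. The calls with correction that did not stay included those of Nr1i3, Akr1d1, Fdft1, Tbx3, Bud23, Rab8a, Cebpa, Ttc36, Sec63 and Eif3e. With a replicate block, 5292 genes differed without and 1451 with correction. The same-numbered mice of the groups had correlations of 0.085 to 0.772, 4 of 5 over 0.1, and 2 of 5 correlated best with their own number. The labels tie no number to a litter or batch, and the numbers were not taken as pairs. The causes of these changes were not tested.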
